A study of Mus musculus with 18 samples.

Results

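The receptors through which neurons sense glutamate and GABA were examined subunit by subunit in 2 brain regions of C57BL6 mice (genotype WT), the striatum and the substantia nigra. Members were all genes whose symbol named an AMPA, delta, kainate or NMDA receptor subunit, a metabotropic glutamate receptor (Grm) or a GABA-A receptor subunit (Gabr), and there were 42 of them among 21753 genes in the 2 tables. They comprised 4 AMPA, 2 delta, 5 kainate and 7 NMDA subunits, 7 metabotropic receptors and 17 GABA-A subunits. All 42 were listed for the nigra and 40 for the striatum; Gabra6 and Gabrr1 were listed for the nigra only, and Gabrp, Gabrr3 and Grm6 were not analysed here. Control mice had PBS injected into the striatum and PBS by the intraperitoneal route. A second group had 4 µg of 6-hydroxydopamine (6-OHDA), a toxin taken up by dopamine neurons, in the striatum and intraperitoneal PBS. The third had the same dose of 6-OHDA and 10 mg/kg per day of TUG469, an agonist of the fatty acid receptor GPR40. Tissue was taken at 3 weeks, and each group had 3 libraries per tissue. The labels give neither age nor sex, and they do not say whether libraries came from separate animals, so p-values measure the spread between these libraries.

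Ionotropic glutamate receptors are tetrameric cation channels: AMPA receptors carry fast excitation, NMDA receptors need an obligatory GluN1 subunit and admit calcium, kainate receptors tune release and excitability, and delta receptors act mainly as synaptic adhesion proteins. Metabotropic glutamate receptors signal through G proteins, with Grm5 coupled to phospholipase C and Grm2 to Grm4, Grm7 and Grm8 to inhibition of adenylyl cyclase. GABA-A receptors are pentameric chloride channels, most often built of alpha, beta and gamma subunits at synapses, or with the delta subunit in place of gamma outside them. In the basal ganglia the striatum is made up mostly of GABAergic projection neurons driven by cortex and thalamus, and these neurons inhibit the substantia nigra.

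Each library held between 42242389 and 61992226 counts, of which the members took 0.522% to 0.597% in striatum and 0.408% to 0.479% in nigra. The 12 marker genes of striatal projection neurons summed to between 7481 and 12484 CPM (counts scaled to library size) in striatal and between 414 and 612 in nigral libraries. Dopamine neuron markers summed to between 57.5 and 110.8 CPM over the 6 tested in striatum. Over the 10 tested in nigra they summed to between 267 and 661, so these sums cover different genes. Slc6a3, the dopamine transporter, stood in the nigra at 70.1, 53.3 and 49.1 CPM in PBS libraries, 66.8, 44.6 and 52.5 in libraries labelled 6-OHDA, and 12.3, 16.8 and 11.8 in those labelled 6-OHDA plus TUG469. The dopamine transporter was therefore low in the last group only and not in the group labelled 6-OHDA alone, though both labels name 6-OHDA. The treatment groups are given below as their libraries are labelled. No source used here says whether counting used strand, so values of overlapping genes are uncertain.

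In PBS mice the tissues differed in nearly all of these receptors, and in opposite directions within most families. By edgeR's quasi-likelihood test, 37 of the 40 members measured in both tissues differed at an adjusted p under 0.05, 18 higher and 19 lower in nigra, where 55.8% of all 18749 genes tested did so, 28.5% higher and 27.3% lower. The median absolute log2 difference was 0.95 among members and 0.40 among all genes. In bulk tissue, fewer cells of a type and less RNA per cell cannot be told apart. Over all 18 libraries and treatments, 14 members were higher in every nigral than in every striatal library, as were 18% of all genes, and 20 were lower in every nigral library, as were 18.2%. The ranges of the other 6 overlapped, Gabra5, Gabrb1, Grin3b and Grm2 among them.

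**Figure D1:**
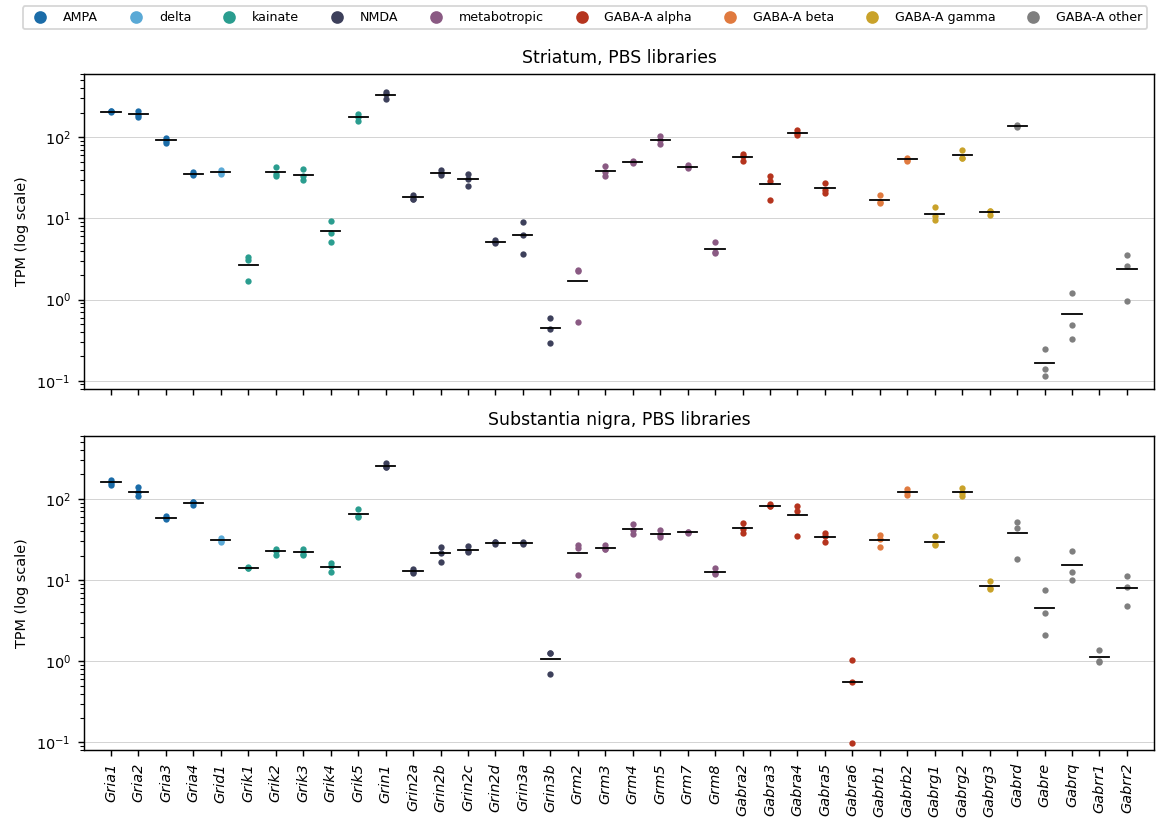
Expression of 38 of the 42 subunit genes in the PBS libraries of both tissues, in TPM (length-scaled transcript level, log axis); points are libraries (3 per tissue), bars their mean and colours the families. Grin1 has the highest mean of all members in both tissues, and Gabra6 and Gabrr1 have no striatal value.

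Among AMPA receptor genes, Gria4 stood apart from the other 3. Levels between genes are compared in TPM, the deposited transcript level scaled by length. Gria1, the GluA1 subunit, was at 208, 209.6 and 203 TPM in the striatal PBS libraries and at 173, 156 and 149 TPM in the nigral ones. Gria2, whose edited product makes the channel impermeable to calcium, was at 179, 208 and 187 TPM in striatum and 121, 139 and 108 TPM in nigra. These were the leading AMPA transcripts in both tissues, and their ranges did not overlap between tissues. On the CPM scale, which served for the tests, Gria2 was at 803, 981 and 853 in striatum and 431, 494 and 393 in nigra, a fall by 1.001 on the log2 scale (SE 0.106, adjusted p = 8.34e-07, edgeR). Gria1 and Gria3 were lower in nigra by log2 0.66 and 0.92 as well, while Gria4 was higher by log2 0.98 (SE 0.0717). Its share of summed AMPA TPM was 6.78% ± 0.461 in striatum and 20.7% ± 1.45 in nigra (SD, n = 3 each).

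Kainate receptor genes were likewise called in both directions, 2 higher and 3 lower in nigra, and delta receptor genes were not. The shares over all genes were 28.5% higher and 27.3% lower. Grik5, which encodes a high-affinity subunit that forms channels only with Grik1 to Grik3 products, was the leading kainate transcript, at 192, 178 and 157 TPM in striatal and 61.2, 59.0 and 74.4 in nigral PBS libraries. Its CPM values were 363, 375 and 315 in striatum and 122, 118 and 124 in nigra, and they did not overlap. That was 2.89-fold lower in nigra (log2 −1.53, SE 0.0822, adjusted p = 5.19e-10, edgeR). Grik2, encoding GluK2, was at 150.2, 197 and 159 CPM in striatum and 88.2, 88.3 and 80.3 in nigra (log2 −0.98, SE 0.117, adjusted p = 3.23e-06, edgeR). Grik1, encoding GluK1, was low in striatum, at 5.47, 3.51 and 6.62 CPM, and every nigral library was above 21 CPM, at 22.5, 21.1 and 21.6. The rise was 4.15-fold (log2 2.05, SE 0.323, adjusted p = 5.42e-05, edgeR), and the Grik1 share of kainate TPM went from 1.06% ± 0.391 in striatum to 10.3% ± 0.365 in nigra. Of the delta receptor genes, Grid1 was at 39.0, 35.8 and 35.4 TPM in striatum and 30.6, 33.0 and 29.4 in nigra. Grid1 was lower in nigra (log2 −0.46, SE 0.115).

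NMDA receptor genes gave each tissue its own makeup, with Grin1 highest in both. Grin1, the obligatory subunit, led the family with 362, 338 and 296 TPM in striatal and 249, 274 and 244 in nigral PBS libraries. It was itself called lower in nigra, at 672, 664 and 560 CPM in striatum and 368, 398 and 365 in nigra. Grin2b, the GluN2B subunit, had the second highest mean in striatum, at 38.9, 34.0 and 36.3 TPM. Grin2d, the slowly deactivating GluN2D subunit, had it in nigra, at 27.7, 29.7 and 29.3 TPM. Grin3a was almost level with Grin2d there, at 29.8, 28.4 and 28.1 TPM. In CPM, Grin2b was at 410.4, 378 and 395 in striatum and 193, 146 and 226 in nigra, a log2 difference of −1.07 (SE 0.232, adjusted p = 0.00101, edgeR). Grin2d was at 13.1, 10.5 and 14.2 CPM in striatum and 63.4, 64.1 and 69.8 in nigra. It was 5.22-fold higher in nigra (log2 2.38, SE 0.130, adjusted p = 5.94e-10, edgeR) and its libraries lay close together within each tissue. Grin3a, encoding the glycine-binding GluN3A, was at 20.8, 12.8 and 30.8 CPM in striatum and 84.2, 79.3 and 80.3 in nigra, 3.77-fold higher (log2 1.91, SE 0.290, adjusted p = 3.85e-05, edgeR). Among the 4 GluN2 genes, the share of TPM held by Grin2d was 5.72% ± 0.285 in striatum and 33.4% ± 2.41 in nigra, and that of Grin2b 40.4% ± 3.34 and 24.4% ± 3.67 (SD, n = 3 each).

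Among the 7 metabotropic receptor genes, 4 were called lower in nigra and 2 higher, where 27.3% and 28.5% of all genes were. Grm5, the phospholipase-coupled receptor of striatal projection neurons, led in striatum with 82.7, 103 and 91.7 TPM and was at 35.7, 41.3 and 34.3 in nigra. It fell from 306, 402 and 331 CPM in striatum to 111, 126 and 109 in nigra, with no overlap (log2 −1.58, SE 0.124, adjusted p = 2.69e-08, edgeR). Grm4, a presynaptic receptor, was second in both tissues, at 47.5, 50.2 and 49.8 TPM in striatum and 41.8, 36.9 and 48.5 in nigra. Grm2, a presynaptic receptor that lowers transmitter release, was nearly absent from striatum, at 3.39, 0.832 and 3.37 CPM, and stood at 30.8, 14.1 and 34.2 CPM in nigra. This was 10.2-fold higher (log2 3.35, SE 0.706, adjusted p = 0.000769, edgeR).

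GABA-A receptor genes were more often higher in nigra: 10 of 15 were called higher there and 4 lower, and Gabra4 did not pass. Of all genes, 28.5% were called higher in nigra and 27.3% lower. Gabrb2, a beta subunit of synaptic receptors, was at 110.1, 132 and 123 TPM in nigra and 50.7, 52.7 and 56.2 in striatum. It was higher in nigra by log2 0.91 (SE 0.106), and its share of beta subunit TPM was 28.4% ± 0.662 in striatum and 52.5% ± 4.50 in nigra (SD, n = 3 each). Gabrd had the highest GABA-A level in striatum, at 139, 138 and 133 TPM. The share of alpha subunit TPM held by Gabra4 was 38.4% ± 4.51 in striatum and 13.4% ± 5.58 in nigra (SD, n = 3 each).

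Gabrd, the delta subunit of receptors outside synapses, had the largest fall of the called members. It was at 116, 119.8 and 113 CPM in striatum and 30.5, 12.4 and 36.5 in nigra (log2 −2.14, SE 0.696, adjusted p = 0.0158, edgeR). Without PBS nigra replicate 2, the lowest library, the log2 difference was −1.80 and the adjusted p 0.0659. The largest rises were of 2 neighbouring genes on the X chromosome. Gabre, encoding the epsilon subunit, was at 0.372, 0.234 and 0.182 CPM in striatum and at 9.16, 2.45 and 4.69 in nigra, 20.3-fold higher (log2 4.35, SE 0.467, adjusted p = 1.00e-06, edgeR). Gabrq, encoding the theta subunit, was at 1.35, 0.936 and 3.37 CPM in striatum and 44.9, 21.1 and 26.0 in nigra (log2 4.00, SE 0.381, adjusted p = 2.65e-07, edgeR). Gabra3, which lies between them, was 2.57-fold higher in nigra.

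Genes of GABA-A subunits lie in clusters, and neighbours did not always differ alike. On chromosome 5 the 4 genes Gabrg1, Gabra2, Gabra4 and Gabrb1 span 1399 kb (GRCm38, positions 70751047 to 72149572). There Gabra4 and Gabrb1 start head to head and overlap by 388 bases. Gabrb1 was higher in nigra, at 189, 134 and 173 CPM against 100.5, 102 and 124 (log2 0.60, SE 0.132, adjusted p = 0.00104, edgeR), and Gabra4 was lower without passing, at 107, 50.8 and 125 CPM against 188, 232 and 204 (log2 −1.14, SE 0.515, adjusted p = 0.0703, edgeR). Sequence before the starts is shown for the chromosome 5 pair and for Gabre, Gabrq and Grm2. The last 3 are those of the 6 largest called rises with a stretch left to print from the RefSeq promoter table (GRCm38.p6). In it 27 of 42 members matched, with 34 windows of 250 bases before to 50 after a start. Bases in annotated exons, or in the first 250 bases of the gene itself, were left off. Only the longest remaining run of a window was kept, and short runs were dropped. That leaves Gabra4 at chr5:71658364-71658558 (minus strand) and Gabrb1 before its second start at chr5:71699825-71699931 (plus strand). Gabre is left at chrX:72274829-72274971 (minus strand), Gabrq at chrX:72824928-72825162 (plus strand) and Grm2 at chr9:106656110-106656359 (minus strand). Capitals mark GC boxes (GGGCGG, either strand) and the NRF1-type motif GCGCATGC (either strand).
Gabra4: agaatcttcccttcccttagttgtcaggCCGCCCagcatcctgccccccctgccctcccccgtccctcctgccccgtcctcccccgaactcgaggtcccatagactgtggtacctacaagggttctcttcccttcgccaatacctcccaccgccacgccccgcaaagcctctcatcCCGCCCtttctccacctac
Gabrb1: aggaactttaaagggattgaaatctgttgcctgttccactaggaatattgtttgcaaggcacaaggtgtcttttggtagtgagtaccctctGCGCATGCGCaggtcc
Gabre: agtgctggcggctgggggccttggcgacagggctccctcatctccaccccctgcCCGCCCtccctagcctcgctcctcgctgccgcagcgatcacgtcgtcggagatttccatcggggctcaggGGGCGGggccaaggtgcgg
Gabrq: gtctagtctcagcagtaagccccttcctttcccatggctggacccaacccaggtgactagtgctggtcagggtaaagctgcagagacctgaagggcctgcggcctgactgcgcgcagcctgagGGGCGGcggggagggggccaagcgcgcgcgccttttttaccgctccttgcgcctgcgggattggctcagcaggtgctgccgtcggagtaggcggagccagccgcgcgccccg
Grm2: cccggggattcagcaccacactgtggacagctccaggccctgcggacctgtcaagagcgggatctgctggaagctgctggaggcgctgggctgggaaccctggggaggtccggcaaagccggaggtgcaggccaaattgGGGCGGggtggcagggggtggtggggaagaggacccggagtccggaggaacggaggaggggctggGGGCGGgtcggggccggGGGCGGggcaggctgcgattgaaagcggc
In these, the Gabra4 stretch held 2 GC boxes, that of Gabre 2, that of Gabrq 1 and that of Grm2 3, and the Gabrb1 stretch held none but 2 overlapping NRF1-type matches, 1 on each strand. Over whole windows a GC box was in 17 of the members' 34 (50%) and in 35.7% of all 32851 windows, and the NRF1-type motif in 1 of the 34, the Gabrb1 window, and in 2.71% of all. A CRE motif (TGACGTCA) was in 0 of the 34 and in 1.79% of all. These are matches of letters only.

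Genes for proteins that assemble, anchor or supply these receptors are read against the 55.8% of all genes called between tissues. Of 19 genes for the postsynaptic scaffold of glutamate synapses, 15 were called lower in nigra and 2 higher, with a median log2 difference of −1.35, where the median over all genes was 0.01. Homer1, which links Grm5 to the scaffold, was at 206, 214 and 204 CPM in striatum and 30.9, 28.5 and 28.4 in nigra (log2 −2.83, SE 0.139, adjusted p = 2.19e-10, edgeR). Dlg2, encoding PSD-93, was at 572, 589.8 and 541 CPM in striatum and 227, 228 and 207 in nigra (log2 −1.36, SE 0.0672). Both were below every striatal library in nigra. Partners of AMPA receptors were called lower in 10 of 18 and higher in 5, led by Shisa7 (log2 −2.01) and Gsg1l (log2 −2.49), which encode auxiliary subunits. Partners of kainate and delta receptors were called higher in 5 of 8 and lower in 2: C1ql2, a synaptic organizer, rose by log2 3.96, while Neto1, an auxiliary kainate subunit, fell by 2.55 on the log2 scale. Among GABA-A partners 4 of 13 were called higher and 8 lower, with Plcl2 (log2 −1.38) at the smallest p. In the GABA-B list, at a share near that of all genes, 1 of 5 was called higher and 2 lower, including the auxiliary subunits Kctd16 (log2 −0.96) and Kctd12 (log2 −0.60). Of 10 genes for uptake and synthesis, 2 were called higher and 4 lower, again near the share of all genes. Slc6a11, the GABA transporter GAT3, was at 145, 106 and 142 CPM in striatum and 991, 1093 and 921 in nigra (log2 2.93, SE 0.144), and Slc1a2, the main glial glutamate transporter, fell by 0.85 on the log2 scale.

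Within the nigra, 3 members named after their values were seen varied between libraries of one treatment far more than most. Gabrd was at 32.2, 13.0 and 38.5 CPM in PBS libraries 1 to 3, 2.97, 24.3 and 5.22 in libraries labelled 6-OHDA 2 to 4, and 4.75, 8.18 and 40.8 in those labelled 6-OHDA plus TUG469 1, 2 and 4, a 13.8-fold range. Gabra4 was at 113, 53.5 and 132 CPM in PBS libraries, 27.6, 89.7 and 29.6 in 6-OHDA and 27.5, 39.1 and 131 in TUG469 libraries. The alpha4 and delta subunits form receptors outside synapses together, and each treated group held 2 libraries below every PBS library and 1 above the lowest of them. Grin2b was at 204, 154 and 238, then 102, 171 and 93.2, then 93.6, 102 and 173 CPM in the same order. All 3 were lowest in the libraries labelled 6-OHDA 2 and 4 and TUG469 1 and 2. The 9 thalamus markers, none of which was at 0, had a mean log2 level relative to PBS of 0.07, −0.41 and 0.34 in PBS, −1.42, −0.12 and −1.22 in 6-OHDA and −1.43, −0.66 and 0.27 in TUG469 libraries. Their summed CPM ranged from 1113 to 1604 in PBS, 772 to 1236 in 6-OHDA and 794 to 1573 in TUG469 libraries. Among them Prkcd, a kinase gene strong in thalamic relay neurons, was at 244, 101 and 315, then 19.4, 206 and 32.9, then 16.3, 61.6 and 323 CPM, while Slc17a6, encoding the vesicular glutamate transporter of thalamus, stayed between 294 and 362. The sum of the 6 cerebellum markers moved with the same libraries, at 255, 129 and 253, then 88.1, 156 and 71.9, then 72.4, 105 and 239.9 CPM. Gene by gene, 4 of the 6 were lower and 2 higher than in PBS under each of the treatment labels. Slc17a7, of the cortical list, was at 81.8, 23.4 and 96.8, then 8.57, 134 and 35.5, then 11.99, 17.9 and 99.5 CPM. The cortical list as a whole did not follow these libraries. Its mean log2 level was −0.38 and 0.12 in 6-OHDA 2 and 4 and −0.28 and −0.42 in TUG469 1 and 2. In PBS libraries it ran from −0.38 to 0.25, and it was highest in 6-OHDA 3, at 1.72. The part of any of these markers in the levels of the receptors was not tested.

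**Figure D2:**
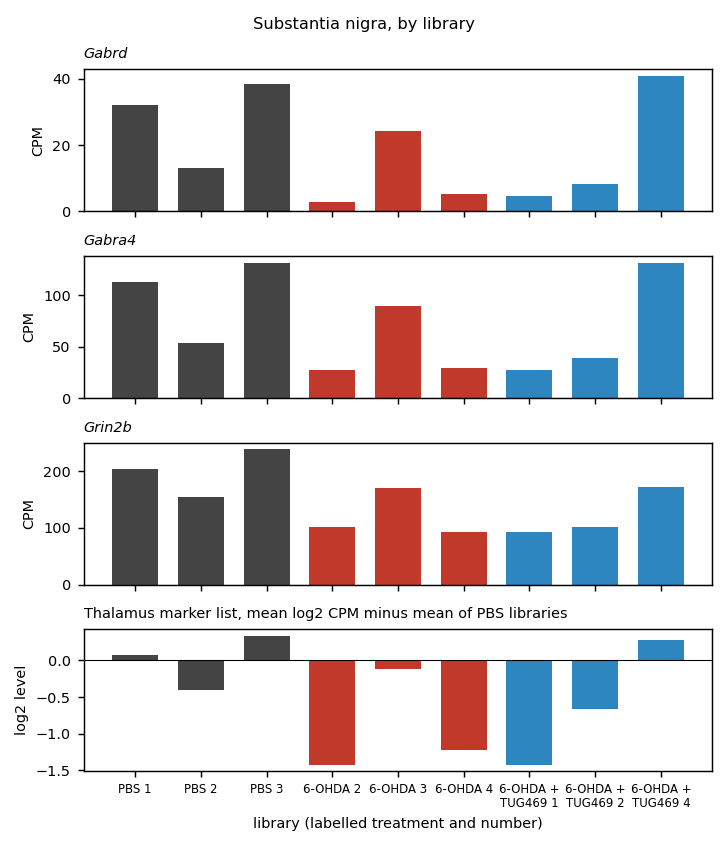
Levels of Gabrd, Gabra4 and Grin2b in each nigral library (bars, CPM) above the level of the thalamus marker list (mean log2 CPM of 9 genes minus the mean of the PBS libraries). Both are low in libraries labelled 6-OHDA 2 and 4 and TUG469 1 and 2 and high in PBS 1 and 3 and TUG469 4.

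A second set of members varied in the striatum, again within treatments and named after their values were seen. Grm2 was at 3.21, 0.786 and 3.19 CPM in PBS libraries, 5.34, 5.50 and 1.06 in 6-OHDA, and 15.7, 1.93 and 5.39 in TUG469 libraries. Grin3a was at 19.7, 12.1 and 29.2, then 21.1, 21.97 and 11.7, then 25.2, 12.2 and 25.5 CPM. In both genes the PBS 2, 6-OHDA 4 and TUG469 2 libraries were the lowest of their group. Grik1 ranged from 2.85 to 7.90 CPM and Gabra3 from 27.6 to 64.0, with those 3 libraries lowest. The 8 markers of cortical and hippocampal excitatory neurons, none at 0, summed to 38.0, 46.9 and 115 CPM in the same 3 libraries, and to between 343 and 791 in the other 6 libraries. Striatal projection neuron markers ran the other way, with summed CPM of 12484, 12107 and 11270 in those 3 libraries and between 7481 and 10038 in the other 6. Slc17a7, the vesicular glutamate transporter of cortical neurons, was at 25.8, 30.0 and 80.1 CPM in those 3 libraries and between 243 and 569 in the rest. The part of both marker lists in the values was not tested. Over all members the median SD of log2 CPM across the 9 libraries of a tissue was 0.15 in striatum and 0.16 in nigra, against 0.16 and 0.14 over all genes.

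**Figure D3:**
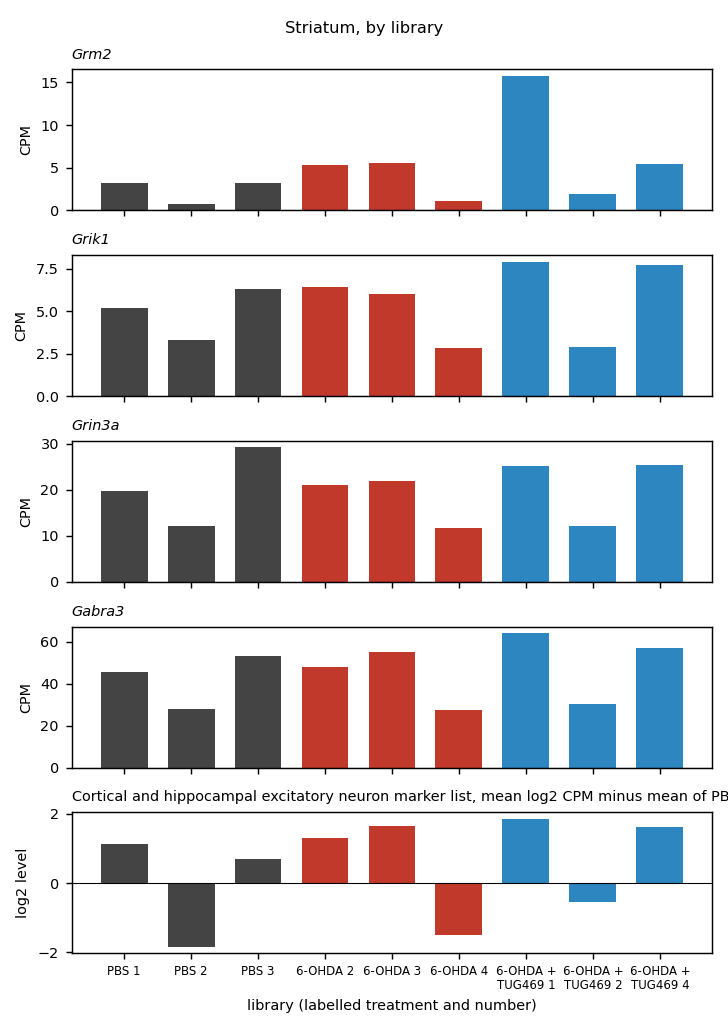
Levels of Grm2, Grik1, Grin3a and Gabra3 in each striatal library (bars, CPM) above the level of the cortical and hippocampal excitatory neuron marker list (mean log2 CPM of 8 genes minus the mean of the PBS libraries). All 5 panels are lowest within each treatment in PBS 2, 6-OHDA 4 and TUG469 2.

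In the nigra most members had slightly lower levels under the label 6-OHDA than in PBS, and none passed the threshold over all genes. Of 42 members, 33 were lower and 9 higher, with a median log2 change of −0.17 where the median of all genes was 0.00. By edgeR 0 were called, as were 0.00508% of genes, and 10 had an unadjusted p under 0.05, all 10 of them lower, against 14.3% of all genes in either direction. In 12 members every 6-OHDA library lay below every PBS library, which held for 10.7% of genes. All 7 metabotropic receptors and 14 of 17 GABA-A subunits were on the lower side, and 12 of 18 ionotropic glutamate subunits. Marker lists moved as well, with 0 of their genes called. The cortical and hippocampal list had the largest median shift, with 6 of 7 higher. All 9 thalamus markers were lower (median log2 change −0.80), as were all 7 ependymal (−0.90), 4 of 6 cerebellum (−0.63) and 9 of 12 projection neuron markers (−0.27). Higher were 8 of 10 dopamine neuron (0.37) and all 8 oligodendrocyte markers (0.21). Medians of the remaining lists were smaller in size. The part of these lists in the members' shift was not tested. Log2 changes fell with transcript length across genes (Spearman's rho −0.33 over 19686 genes, which are not independent), and members had a median length of 5851 bases against 3329; with that trend removed the members' median was −0.10.

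The 4 members with the smallest p were Gabrg3, Grin3a, Gria1 and Grik2. Gabrg3, a gamma subunit, was at 37.2, 29.8 and 30.4 CPM in PBS and 24.4, 23.4 and 20.1 in 6-OHDA libraries, a log2 change of −0.52 (SE 0.102, adjusted p = 0.170, edgeR). Grin3a was at 88.9, 83.4 and 84.6 CPM in PBS and 74.7, 68.8 and 64.3 in 6-OHDA libraries (log2 −0.31, SE 0.0609, adjusted p = 0.170, edgeR). Neither gene's groups overlapped. Gria1 was at 394, 344 and 344 and at 317, 306 and 265 CPM (log2 −0.28, SE 0.0771, adjusted p = 0.206, edgeR). Grik2 was at 93.0, 93.0 and 84.6 and at 78.6, 79.8 and 74.6 CPM (log2 −0.22, SE 0.0630, adjusted p = 0.218, edgeR). Gaps between the groups were narrow in both. The DESeq2 test called 4 members lower, Gabrg3 (adjusted p = 0.00135), Grin3a (adjusted p = 0.00335), Gria1 (adjusted p = 0.0365) and Gabrb1, where it called 2.91% of all genes. In the authors' deposited table the same 4 genes passed, with folds of −1.43, −1.23, −1.21 and −1.39, beside 3.07% of all genes there. Gabrd and Gabra4 had the largest changes, −1.36 (SE 0.879) and −1.02 (SE 0.625), and their groups overlapped.

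Libraries labelled 6-OHDA plus TUG469 also lay below PBS in the nigra, with 28 of 42 members lower and a median log2 change of −0.08. The same PBS libraries serve both comparisons. By edgeR 0 members were called where 1.85% of genes were, and 9 had an unadjusted p under 0.05, 8 of them lower, against 19.7% of genes. All 8 oligodendrocyte markers were higher here too (median log2 change 0.29). Among them Opalin, a myelin gene, was called, at 48.5, 47.3 and 59.7 CPM against 18.2, 15.1 and 29.1 in PBS. Lower were 9 of 10 dopamine neuron (median −0.62), 10 of 12 projection neuron (−0.28), 8 of 9 thalamus (−0.38) and all 7 ependymal markers (−0.50). The GABA neuron (4 of 6 higher) and endothelial and mural lists (5 of 7 higher) leaned up. Markers called lower were Slc6a3 (log2 −2.08), Pde10a (−0.65), Gjb6, of astrocytes (−0.62), and Gpr17, of oligodendrocyte precursors (−0.60). The part of these lists was not tested. In 6 members all TUG469 libraries were below all PBS libraries, as in 12.3% of genes. Grin3a came nearest, at 71.8, 69.1 and 72.1 CPM against 88.9, 83.4 and 84.6 (log2 −0.27, SE 0.0609, adjusted p = 0.0547, edgeR). Gabrb1, a beta subunit, was at 113, 104 and 149 CPM against 199, 141 and 182 in PBS (log2 −0.51, SE 0.151, adjusted p = 0.104, edgeR), and these ranges overlapped. Gabrg3 was at 24.6, 25.1 and 27.2 CPM (log2 −0.34, SE 0.102, adjusted p = 0.107, edgeR), below all PBS libraries. Grik3, encoding GluK3, was at 61.9, 65.3 and 58.4 CPM against 84.7, 71.0 and 74.5 (log2 −0.31, SE 0.0939, adjusted p = 0.109, edgeR). DESeq2 called these 4 lower, with adjusted p of 0.00395, 0.0107, 0.0295 and 0.0306, and so did the authors' deposited table, with folds of −1.20, −1.42, −1.26 and −1.24. Over all genes DESeq2 called 10.4%, and 9.63% passed in the authors' deposited table, so 4 of 42 members is near the background. With the length trend removed the members' median was −0.03.

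Between the libraries labelled 6-OHDA plus TUG469 and those labelled 6-OHDA the nigral members differed little. Of 42 members 30 were higher and 12 lower in the libraries with TUG469, with a median log2 change of 0.05. In 4 members every TUG469 library lay above every 6-OHDA library, as in 7.25% of genes. EdgeR called 0 members (0.00508% of genes), and 0 had an unadjusted p under 0.05 (8.2% of genes). The smallest p values belonged to Grm7, a presynaptic receptor, with 84.5, 89.8 and 103.7 CPM against 80.5, 88.2 and 81.2 (log2 0.15, SE 0.0744), and to Grik2 with 80.5, 82.9 and 91.1 against 78.6, 79.8 and 74.6 (log2 0.13, SE 0.0630). Gabrg1 (log2 0.19, SE 0.108) and Gabrg3 (log2 0.18, SE 0.102) came next. Adjusted p values of these 4 lay between 0.636 and 0.718 by edgeR. DESeq2 also called 0 members, and 0.6% of genes.

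**Figure D4:**
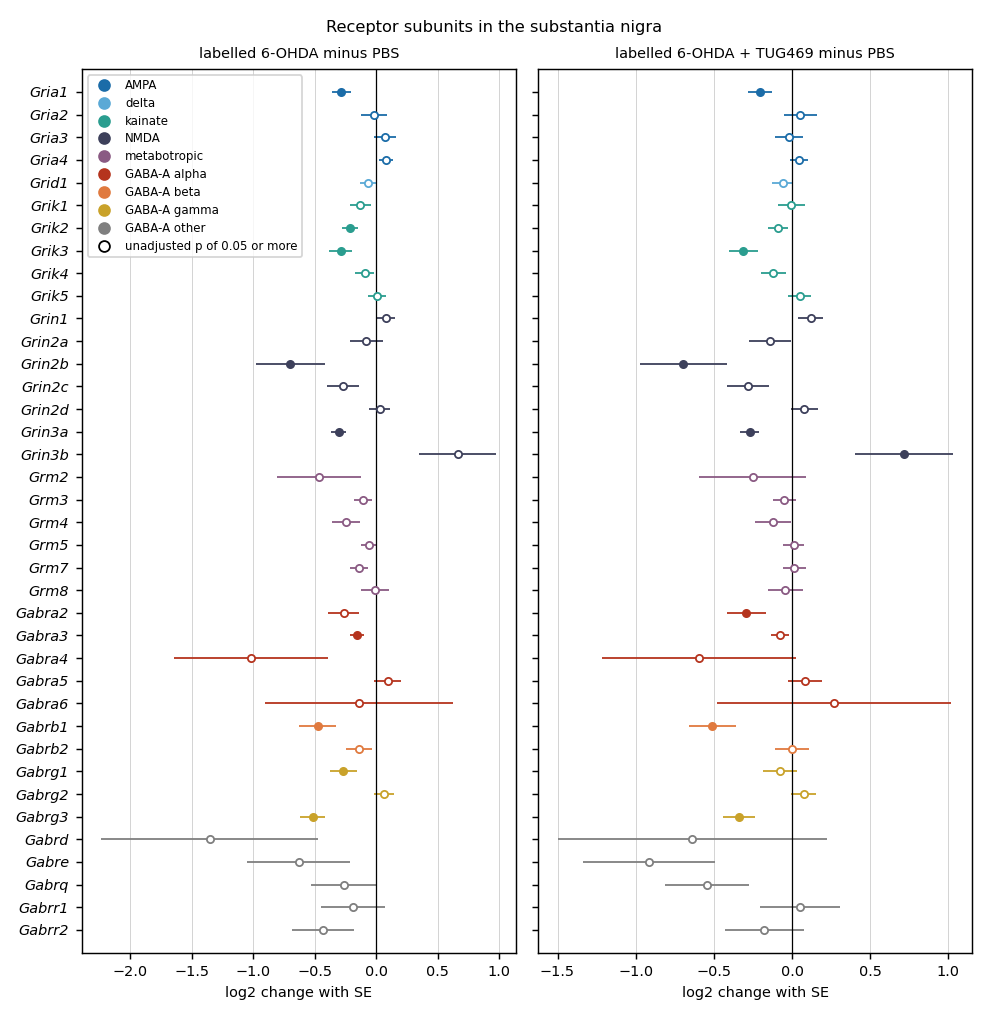
Log2 change of 38 of the 42 subunit genes in the nigra (points with SE, edgeR) for libraries labelled 6-OHDA against PBS (left) and 6-OHDA plus TUG469 against PBS (right); filled points have an unadjusted p under 0.05. Points lie mostly to the left of 0, 30 and 25 of the 38 shown, and both panels share the PBS libraries.

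In the striatum the members were on both sides of 0. Against PBS, libraries labelled 6-OHDA had 22 of 40 members lower and 18 higher, and a median log2 change of −0.01; edgeR called 0 members and 0% of genes, and 2 members had an unadjusted p under 0.05 against 7.5% of genes. Gabra5, the alpha subunit best known from hippocampus, was at 34.0, 34.9 and 29.8 CPM against 26.1, 24.9 and 31.2 in PBS (log2 0.26, SE 0.0971, adjusted p = 0.568, edgeR), with overlap through PBS 3. Grin2a, the GluN2A subunit, was at 95.7, 105 and 112 CPM against 126, 118 and 116, without overlap (log2 −0.21, SE 0.0818, adjusted p = 0.615, edgeR). All 7 NMDA genes were on the lower side. Gabrb2 (log2 −0.15, SE 0.0924) and Gabrr2 (log2 −0.89, SE 0.413) had the next smallest p. DESeq2 called 0 members and 0.871% of genes.

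Gabrr2, encoding a rho subunit known from retina, had the smallest p of the striatal members, for TUG469 against PBS. It was at 1.99, 2.85 and 0.765 CPM in PBS libraries, 1.31, 0.983 and 0.717 in 6-OHDA, and 0.669, 0.671 and 0.585 in TUG469 libraries, with counts of 35 to 116 per library. The TUG469 libraries were below all others, and PBS 3 lay far below the other 2 PBS libraries. Against PBS the log2 change under TUG469 was −1.53 (SE 0.422, adjusted p = 0.242, edgeR). Without PBS striatum replicate 3 it was −1.90 with an adjusted p of 0.0450, DESeq2 gave an adjusted p of 0.0317 (1.81% of genes called), and the authors' deposited table a fold of −2.89 with an adjusted p of 0.0323 (1.74% of genes past the threshold). For TUG469 against PBS edgeR called 0 members and 0% of genes, and 2 members, Gabrr2 and Grin2a, had an unadjusted p under 0.05 against 12.5% of genes. Grin2a was at 109, 93.3 and 103 CPM in the TUG469 libraries (log2 −0.24, SE 0.0817, adjusted p = 0.298, edgeR). Gabra5 was at 31.3, 31.0 and 31.4 CPM there (log2 0.19, SE 0.0970), and Grm2 had a log2 change of 1.67 (SE 0.801) that rested on values from 1.93 to 15.7 CPM.

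For libraries labelled 6-OHDA plus TUG469 against 6-OHDA alone in the striatum, the members' median was −0.03. EdgeR called 0 members (0.00523% of genes), and 0 had an unadjusted p under 0.05 (7.49% of genes). Gria2 was at 765, 714 and 731 CPM against 778, 805 and 906 (log2 −0.17, SE 0.0958), just without overlap. Gabre (log2 −0.61, SE 0.364, under 0.5 CPM throughout), Gabrr2 (log2 −0.64, SE 0.427) and Gria1 (log2 −0.12, SE 0.0979) had the next smallest p. Their adjusted p values ran from 0.738 to 0.818 by edgeR, and DESeq2 called 0 members and 0.339% of genes.

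Whether the treatment changes differed between the tissues was tested in the fit of all 18 libraries. For 6-OHDA against PBS edgeR called 0 members (0.155% of genes), and 3 had an unadjusted p under 0.05 against 12.2% of genes: Gabrb1 (nigral minus striatal change −0.57, SE 0.186, adjusted p = 0.219, edgeR), Gabrg3 (−0.54, SE 0.198) and Gria1 (−0.29, SE 0.129). These 3 were named after their values were seen. For TUG469 against PBS 0 members were called (0% of genes) and 4 had an unadjusted p under 0.05 (10.1% of genes). For TUG469 against 6-OHDA 0 were called (0% of genes) and 0 had an unadjusted p under 0.05 (3.73% of genes). DESeq2 called 0 members in all 3, and 1.81%, 0.364% and 0.0206% of genes in the same order.

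Partner genes gave few calls under treatment. Of the 73 genes in the 6 lists of receptor partners, scaffold, GABA-B receptor and transmitter supply, only Frrs1l passed in any of the 6 treatment comparisons, and 1 of 73 is near the 1.85% of all genes called in that one, nigral TUG469 against PBS. Frrs1l, needed for the assembly of AMPA receptors, was at 101, 96.0 and 98.3 CPM in nigral PBS libraries and 73.9, 73.3 and 69.4 in those labelled 6-OHDA plus TUG469. In nigral libraries labelled 6-OHDA alone it was at 78.2, 85.4 and 69.9 CPM, also below every PBS library. For TUG469 against PBS it was 1.36-fold lower without overlap (log2 −0.45, SE 0.0703, adjusted p = 0.0231, edgeR). Porcn, another AMPA receptor assembly factor, had the next smallest p of that list (log2 0.18, SE 0.0520, adjusted p = 0.0946, edgeR). In the same comparison 11 of 18 AMPA partners were lower and 7 higher, with a median log2 change of −0.02, and 14 of 19 scaffold genes were lower with a median of −0.15, none of them called.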

How the data were processed

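RNA was measured in 18 libraries of striatum and substantia nigra, 3 per treatment and tissue. The tools named in the submitters' processing notes are STAR 2.7.3a, Trim Galore 0.38, FastQC 0.11.7 and Cufflinks, with the build GRCm38; no source used here gives the counter or its strand setting. For every gene the authors deposited raw counts, TPM (scaled by length) and FPKM values, and for each pair of groups a signed fold change and an adjusted p-value. No listed gene has a count of 0 in any of a table's 9 libraries.

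Counts were tested with edgeR 4.0.16 (quasi-likelihood F test, R 4.3.3) after filterByExpr (minimum count 10, minimum total 15) and TMM scaling, with 1 fit per tissue and 1 fit of all 18 libraries for tissue comparisons. P-values were adjusted over all tested genes (Benjamini-Hochberg, threshold 0.05), 19115 in striatum, 19686 in nigra and 18749 in both. Standard errors (SE) come from the F statistic. Length came from counts and FPKM. The members and lists were chosen with earlier results of these data known. Named members were, per treatment comparison, the 4 with the smallest p, per family and tissue the 2 with the highest TPM in PBS libraries, and between tissues the 6 largest called rises and falls without overlap; those added after their values were seen are marked, and a few genes that the rule names are not reported here. Alternatives were median-ratio size factors, DESeq2 1.42.0, limma 3.58.1 on log2(TPM + 1) for genes with a mean TPM of at least 0.1, no filter, fewer groups, a replicate block, removal of a length trend, and leaving out each library. The test was checked on counts simulated with known changes. For 6-OHDA against PBS in striatum it called 54% of changes of log2 1 and 22.4% of those of log2 0.5. In nigra it called 61.6% and 30.3%, so changes of these sizes were often missed.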

Additional observations from a re-analysis of the deposited data

How the results depend on the processing

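The number of members past the adjusted threshold between tissues in PBS mice was 37 of 40, and it ranged from 33 to 39 when each library was left out in turn. All 12 named members kept their direction there, and Gabrd was the exception on the threshold: without PBS nigra replicate 2 its log2 difference was −1.80 (edgeR, adjusted p = 0.0659). In the treatment comparisons and in the comparisons of treatment changes between tissues edgeR called 0 members, and that count moved under 2 settings. With the DESeq2 test it was 1 in the striatum for TUG469 against PBS (Gabrr2; 1.81% of all genes), 4 in the nigra for 6-OHDA against PBS (2.91%) and 4 in the nigra for TUG469 against PBS (10.4%). When each library was left out, it ranged from 0 to 1 in the striatum for TUG469 against PBS, where Gabrr2 passed without PBS striatum replicate 3, and was 0 in the other 8. With the replicate block, which treats equal numbers as pairs, the counts were 0 in those 9 comparisons and 37 between tissues in PBS mice. Deviations of same-numbered libraries of the 2 tissues correlated above 0.1 in 8 of 9 pairs, against 0 of 18 other-numbered pairs, and 16 of 18 libraries correlated best with their own number, a hint of pairing between tissues; since 1 pair fell short and the labels state no pairing, the fit without the block was kept. Of 672 values of named members under alternatives, none changed sign, 662 stayed on the same side of the threshold, 9 passed it and 1 no longer did. The median of the members in the comparison of 6-OHDA changes between tissues moved from −0.17 to −0.03 with the length trend removed, and the striatal median for TUG469 against PBS from −0.04 to 0.02 with limma.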
